A study of Mus musculus with 8 samples.

Results

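In the embryonic mouse cortex, 2447 regions outside protein-coding genes lay under an H3K4me peak in both Prdm16 mutant libraries and under none in either control library. They were chosen from the authors' peak lists on chromosomes 1 to 19. Overlapping peaks were merged in each list, the 2 mutant lists were intersected, and pieces of at least 200 bp with no control peak base and no overlap with a protein-coding gene span (RefSeq, GRCm38.p6) were kept. The 2 mutant lists shared 71404 pieces of at least 200 bp in all, with or without a control peak and called common pieces here, and 27398 of these lay outside coding genes. The choice therefore used the presence and absence of peaks in all 4 libraries, and the contrast between the genotypes at these regions is described here and not tested.

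Chromatin came from whole cortex lysate of mouse embryos at E15.5. The mutant embryos (cKO, Emx1Ires-Cre; Prdm16flox/flox) carried floxed Prdm16 alleles and a Cre recombinase made from the Emx1 locus, and the control embryos (WT, Prdm16 flox/flox) carried the same floxed alleles without Cre. There were 2 libraries per genotype, and the labels do not say whether each came from 1 embryo or from a pool. Emx1 is active in the dorsal telencephalon, so interneurons, vessels and blood of the same lysate mostly keep intact alleles, and more cells with the mark cannot be told apart from more mark per cell. The question behind these libraries is how the distribution of the mark changes upon Prdm16 deletion.

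Monomethylation of lysine 4 of histone H3, the form that the antibody's catalogue entry names, is deposited by the KMT2C and KMT2D complexes. It marks enhancers, both active and poised, and the flanks of promoters, and in developing cortex many enhancers lie far from the gene that they control. PRDM16 is a zinc-finger transcriptional regulator made in radial glia, which divide to give rise to cortical neurons. It binds distal regulatory DNA and can repress or activate it.

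The labelled tissue was checked on marker genes. Peaks covered between 71.6% and 80.1% of the Pax6 span over the 4 libraries, between 75.2% and 100% of Eomes and between 73.4% and 81.0% of Bcl11b, genes of radial glia, intermediate progenitors and deep layer neurons. Aif1 of microglia, Hba-a1 of red cells and Alb of liver were at 0 in every library. Cldn5 of endothelium had 37.2% to 81.7% of its short span covered, and Myod1 of muscle 59.0% to 100%. The Prdm16 span itself was 51.4% and 54.6% covered in cKO replicates 1 and 2, against 46.1% and 43.1% in WT replicates 1 and 2, which does not check the deletion. The cKO lists were larger, with 79383 and 81447 autosomal peaks over 147 and 165 Mb, against 74380 and 65740 peaks over 129 and 113 Mb in WT. Values with lists cut to equal numbers or equal length are given below.

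A small part of the regions reached the start of an annotated gene, and these are the ones whose sequence can be shown. Of the 2447 regions, 54 touched the window from 250 bases before to 50 bases after a RefSeq gene start, and they touched the windows of 14 coding and 41 lncRNA genes. In all they touched 57 windows of 55 genes. The 20512 common pieces outside coding genes that both WT lists also touched, which were longer, touched 1227 windows of 1051 genes. None of the 2447 overlapped any of the 919 miRNA hairpins looked at, a count with no value for other pieces beside it. The 5 coding genes with the region nearest to the start are shown by the 250 bases before the start, 5′ to 3′ on the gene's strand (GRCm38.p6, RefSeq), with the bases inside the cKO-only region in capitals.
Gm31493 (chr1:160025764-160026013, minus strand): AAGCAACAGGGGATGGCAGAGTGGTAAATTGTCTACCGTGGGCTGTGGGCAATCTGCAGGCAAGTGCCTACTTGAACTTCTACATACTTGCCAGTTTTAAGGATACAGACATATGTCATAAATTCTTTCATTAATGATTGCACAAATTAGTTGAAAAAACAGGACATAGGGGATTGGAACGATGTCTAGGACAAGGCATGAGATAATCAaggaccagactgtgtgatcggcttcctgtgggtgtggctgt
Tent2 (chr13:93192418-93192667, minus strand): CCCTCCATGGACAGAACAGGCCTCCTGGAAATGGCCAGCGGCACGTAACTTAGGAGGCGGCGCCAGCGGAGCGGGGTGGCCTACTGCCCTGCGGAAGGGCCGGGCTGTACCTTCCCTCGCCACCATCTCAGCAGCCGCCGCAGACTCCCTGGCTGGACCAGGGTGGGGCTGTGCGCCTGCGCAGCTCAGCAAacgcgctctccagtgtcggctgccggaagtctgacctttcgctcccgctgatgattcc
Dclk1 (chr3:55242114-55242363, plus strand): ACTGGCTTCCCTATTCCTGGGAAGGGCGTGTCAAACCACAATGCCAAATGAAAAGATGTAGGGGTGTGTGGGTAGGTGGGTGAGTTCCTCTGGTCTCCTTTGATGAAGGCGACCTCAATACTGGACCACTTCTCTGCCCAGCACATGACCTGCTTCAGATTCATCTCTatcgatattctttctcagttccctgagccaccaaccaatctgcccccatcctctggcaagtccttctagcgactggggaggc
Oxct1 (chr15:4026178-4026427, plus strand): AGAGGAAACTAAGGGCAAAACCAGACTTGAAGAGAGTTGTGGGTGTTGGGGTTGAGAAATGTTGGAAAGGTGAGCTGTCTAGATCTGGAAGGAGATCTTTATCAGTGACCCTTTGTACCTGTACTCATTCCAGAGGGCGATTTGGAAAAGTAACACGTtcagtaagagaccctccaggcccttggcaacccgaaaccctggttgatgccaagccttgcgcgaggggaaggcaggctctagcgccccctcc
P4ha3 (chr7:100285270-100285519, plus strand): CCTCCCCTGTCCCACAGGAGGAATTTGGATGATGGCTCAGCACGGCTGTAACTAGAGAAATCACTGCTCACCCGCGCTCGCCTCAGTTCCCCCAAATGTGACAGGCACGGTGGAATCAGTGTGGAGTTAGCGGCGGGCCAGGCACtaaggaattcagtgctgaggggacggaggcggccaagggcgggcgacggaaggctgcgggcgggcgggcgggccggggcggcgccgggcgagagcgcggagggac
In each of the 5 the region covered the distal part of the stretch and stopped 42 to 106 bp short of the gene start.

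Tent2 encodes a poly(A) polymerase that lengthens the tails of messenger RNA. The 319 bp region before it (chr13:93192476-93192794) had a fold enrichment of 3.77 and 3.43 in cKO replicates 1 and 2. The nearest WT peaks lay 1207 and 1926 bp away in WT replicates 1 and 2. Dclk1, a doublecortin-like kinase that binds microtubules in radial glia and young neurons, had a region of 336 bp ending 83 bp before this start, with folds of 3.17 and 3.79. The regions before Oxct1, an enzyme of ketone body use, and P4ha3, a prolyl hydroxylase of collagen, had folds of 3.49 and 4.13 and of 3.83 and 3.24 in cKO replicates 1 and 2. At these 4 genes the nearest WT peaks were 1207 to 2398 bp from the region. At Tent2, Dclk1 and Oxct1 a covering cKO peak ran on to touch a WT peak, and at P4ha3 it did not. Gm31493 differed from them, with the nearest WT peaks 18027 and 123063 bp away. Its folds of 3.01 and 2.88 were the lowest of the 5, with −log10 q of 2.02 and 1.82. Folds, p and q are the authors' values for the peak that covers a region.

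Among lncRNA genes, 10 had the whole 300-base window inside a cKO-only region. The 3 of these with the most distant WT peaks, picked after their values were seen, are shown by the 250 bases before the start. Here capitals mark matches, on either strand, to CANNTG (E-box, bound by proneural factors), TGANTCA (AP-1) or ACAAAG (SOX).
Gm38752 (chr5:149091080-149091329, plus strand): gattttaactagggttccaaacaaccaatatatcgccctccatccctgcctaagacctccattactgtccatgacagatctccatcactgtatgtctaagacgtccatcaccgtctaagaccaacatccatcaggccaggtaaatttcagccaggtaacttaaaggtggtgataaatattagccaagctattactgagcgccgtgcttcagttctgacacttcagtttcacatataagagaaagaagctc
Gm32727 (chr5:76006399-76006648, plus strand): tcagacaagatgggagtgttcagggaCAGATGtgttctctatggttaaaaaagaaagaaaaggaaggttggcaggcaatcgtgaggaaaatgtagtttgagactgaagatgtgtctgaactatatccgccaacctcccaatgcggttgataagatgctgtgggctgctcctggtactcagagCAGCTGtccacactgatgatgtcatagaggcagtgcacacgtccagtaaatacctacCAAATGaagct
Gm35722 (chr10:100741636-100741885, minus strand): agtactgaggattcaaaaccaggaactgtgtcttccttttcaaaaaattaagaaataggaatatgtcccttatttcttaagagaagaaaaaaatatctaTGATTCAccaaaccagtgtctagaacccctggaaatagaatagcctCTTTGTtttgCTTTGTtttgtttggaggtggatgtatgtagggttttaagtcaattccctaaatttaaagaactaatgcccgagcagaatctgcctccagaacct
The regions over them were 982, 571 and 660 bp long. In the same order, folds in cKO replicates 1 and 2 were 3.14 and 3.22, 3.01 and 3.02, and 3.55 and 3.82. For Gm32727 the −log10 q was 1.85 and 2.03. WT peaks were at least 36703 bp away for Gm38752, 26844 bp for Gm32727 and 26128 bp for Gm35722. The Gm32727 region lies 27.3 kb upstream of Kdr, the VEGF receptor of endothelium.

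The letters of the touched windows were set beside those of windows touched by shared regions, which are the common pieces outside coding genes that a peak of each WT list also touched. Over the 250 bases before the start, the 14 coding windows had a median G and C content of 60.4%, against 60% in 81 coding windows touched by shared regions and 56% in all 20084. The 43 lncRNA windows stood at 47.6%, against 50% in 1145 and 48.4% in all 11311. CpG pairs exceeded 5 per 100 bases in 57.1% of the 14 coding windows and 55.6% of the 81. An E-box was present in 70.2% of the 57 windows touched by cKO-only regions, 72.9% of those touched by shared regions and 66.1% of all 31396. The SOX motif was in 19.3%, 21.8% and 16.3% of the same sets, AP-1 in 5.26%, 5.38% and 6.77%, and the homeodomain letters TAATTA in 1.75%, 7.74% and 4.81%. AGATAA was found in 7.02%, 11.4% and 9.94%. The E-box form CAGNTG, a subset of CANNTG, was in 42.1%, 48.5% and 44.9%, and the NFI palindrome in 0 of the 57 windows. The motif shares pool coding and lncRNA windows, whose mix differed. Windows of lncRNA genes were 43 of the 57, 1145 of the 1227 touched by shared regions and 11311 of all 31396. In coding windows alone an E-box was in 57.1%, 66.7% and 62.6% of the same sets, and in lncRNA windows in 74.4%, 73.4% and 72.4%. With 57 windows these shares are coarse, and a match is not a bound site.

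As a whole the regions were short. The median length was 452 bp (quartiles 347 and 638 bp), against 1269 bp for the 20512 shared regions outside coding genes. Only 174 of them (7.11%) reached 1 kb and 12 reached 2 kb, while 63.1% of shared regions reached 1 kb. In sum they held 1338 kb, compared with 34873 kb in shared regions. At the length limit, the 3 shortest regions had 200, 200 and 202 bp and lay nearest to Apob, Ppp2r3a and Ddhd1. The 3 longest pieces that the limit left out had 199 bp and lay nearest to Eea1, Rwdd3 and Creb3l2, and 40 pieces of 180 to 199 bp stood just below it beside 23 regions of 200 to 219 bp.

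The 2447 regions were 8.93% of the 27398 common pieces outside coding genes. In coding genes 6.81% of 44006 common pieces had no WT base, and over both classes together 7.63%. The mirror rule gave 278 WT-only regions outside coding genes, 1.23% of 22607 pieces common to both WT lists, with 0.774% in coding genes and 0.944% over both classes. The share outside exceeded the share in coding genes on each of the 19 chromosomes, from 7.61% on chromosome 13 to 10.3% on chromosome 10. At matched length it did so in only part of the classes. Of pieces from 200 to under 300 bp, 39.3% were cKO-only outside coding genes and 41.6% in them. From 400 to under 500 bp these were 21.2% and 21.3%, from 750 to under 1000 bp 6.97% and 4.99%, and from 2000 bp on 0.216% and 0.185%. Common pieces outside coding genes were shorter, with a median of 1003 bp against 1176 bp over all common pieces.

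**Figure D1:**
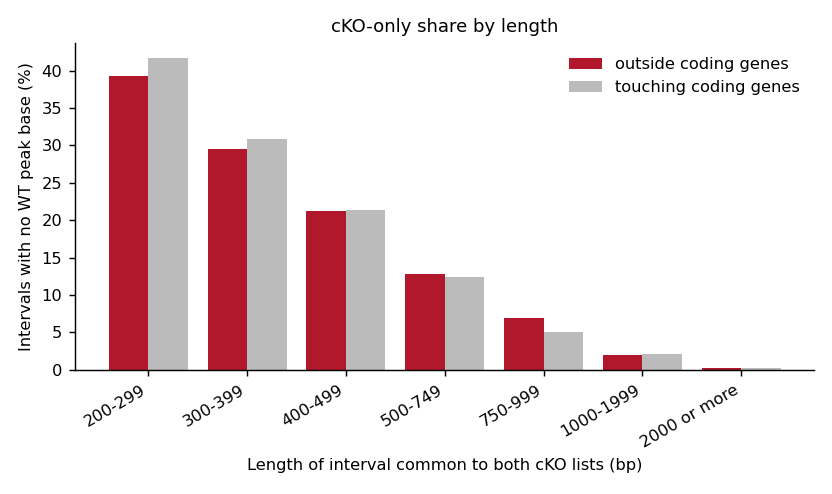
Percent of intervals common to both cKO lists that held no WT peak base (vertical axis), by interval length in bp (horizontal axis). Red bars are intervals outside coding genes and grey bars those touching them. The share falls from 39.3% in the shortest class to 0.216% in the longest outside coding genes, and the 2 kinds of bar are close in most classes.

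The peaks behind the regions were among the weaker ones of their lists. The median fold enrichment was 3.35 in cKO replicate 1 and 3.30 in cKO replicate 2, where shared regions outside coding genes had 4.32 and 4.21. On the scale of all peaks of a list the median region stood at percentile 20.9 in replicate 1 and 26.9 in replicate 2. The cKO-only pieces in coding genes were alike, at 20.9 and 26.2. WT-only regions outside coding genes stood at 21.8 and 22.1 in WT replicates 1 and 2. In both libraries at once 110 regions (4.50%) exceeded the list median, and 0 were in the top 10% of both. The −log10 q of the covering peaks had medians of 2.67 and 2.62, and 882 regions (36.0%) had a −log10 q under 2 in at least 1 cKO library. The fold was higher in replicate 1 for 1350 regions (55.2%).

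**Figure D2:**
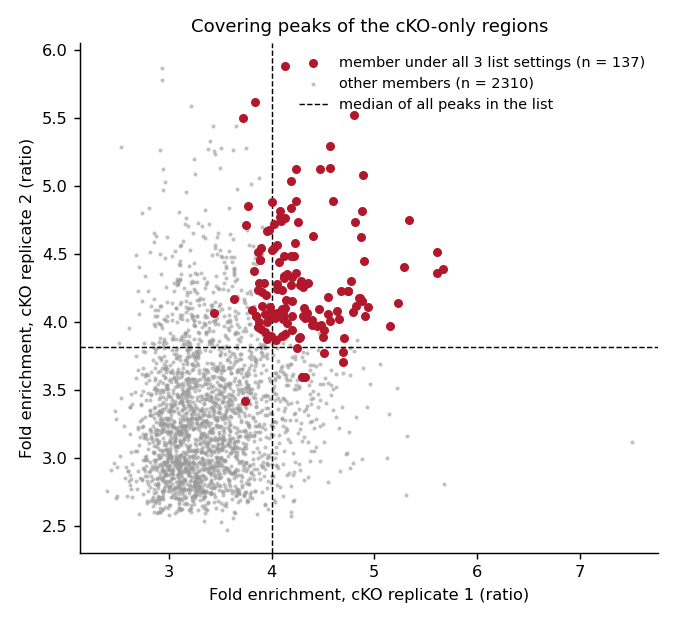
Fold enrichment of the covering peak in cKO replicate 1 (horizontal) and cKO replicate 2 (vertical), 1 point per region. Dashed lines mark the median of all autosomal peaks of each list, 4.0 and 3.82. Most points lie below both lines, and the 137 red points are the regions kept under the 3 stricter list settings.

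Most regions stood apart from WT peaks and were not the edges of broader shared ones. For 2253 of the 2447 (92.1%) the covering cKO peaks touched no WT peak along their whole width. This held for 89.1% of cKO-only pieces in coding genes. Of the WT-only regions outside coding genes, 92.1% had covering WT peaks that touched no cKO peak. Among the 194 other cKO-only regions outside coding genes, the covering peak touched a WT peak in cKO replicate 1 for 61 and in cKO replicate 2 for 136. The nearest WT peak was a median of 7552 bp away, within 1 kb for 55 regions (2.25%), beyond 10 kb for 1027 (42.0%) and beyond 100 kb for 78. The shares at 1 kb and 5 kb given next are means of the 2 sides. At 1 kb from the centre, 2.82% and 7.48% of the regions were under a peak in cKO replicates 1 and 2. In WT replicates 1 and 2 these shares were 0.266% and 0.245%. The rule puts cKO peaks on the regions and keeps WT peaks off them, so a contrast this near is shaped by the choice. At 5 kb the shares were 8.58% and 9.83% in cKO, against 7.56% and 6.13% in WT. Around shared regions the values at 5 kb were 11.8% and 13.4% in cKO, and 10.7% and 9.50% in WT.

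**Figure D3:**
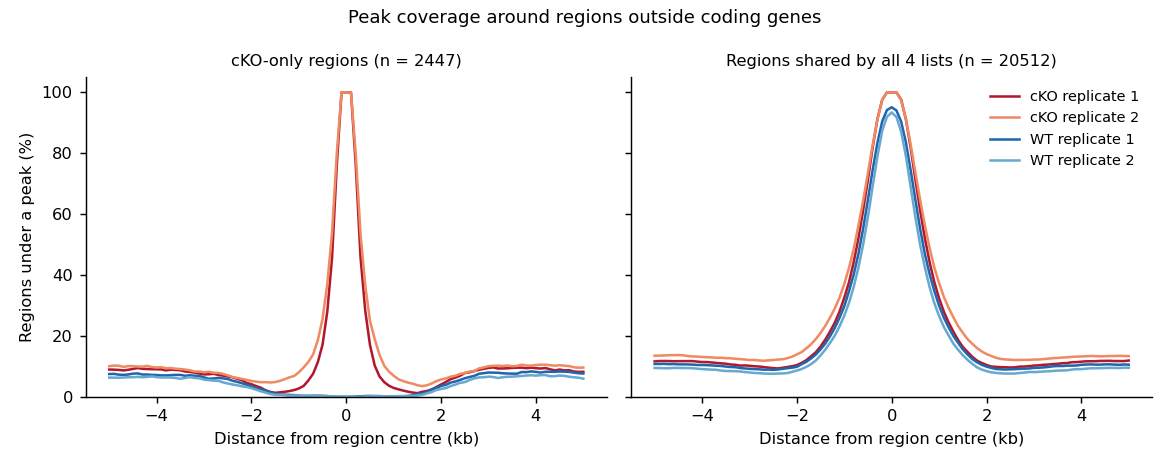
Percent of regions under a peak in each library (vertical) by distance from the region centre in kb (horizontal), for cKO-only regions on the left and shared regions on the right. The choice of regions fixes the cKO lines at 100% and the WT lines at 0 in the centre of the left panel. It also shapes the lines near the centre. At 5 kb the lines of both genotypes lie between 6.13% and 9.83% there.

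Most regions were far from coding genes, at distances close to those of shared regions. The median distance to the nearest coding gene span was 47.7 kb for cKO-only and 50.1 kb for shared regions, compared with 95.3 kb for the 278 WT-only regions. Within 1 kb of a coding gene lay 6.01% of cKO-only and 5.08% of shared regions, and beyond 500 kb 4.09% and 3.5%. The share of common pieces that were cKO-only was 9.76% within 1 kb (exact 95% binomial interval 8.31% to 11.4%), 8.65% at 50 to 200 kb (8.06% to 9.26%) and 10.1% beyond 500 kb (8.32% to 12.2%). Common pieces in these classes differed in length, with medians of 718 bp within 1 kb, 1054 bp at 50 to 200 kb and 792 bp beyond 500 kb. These intervals cover counting error only, and neighbouring pieces are not independent. Of the 115 regions within 1 kb of a gene whose strand is in the RefSeq promoter table, 92 were upstream of the gene and 23 downstream, 80.0% against 70.5% of shared regions. Centres of 453 regions (18.5%) lay in lncRNA genes, against 21.6% of shared regions.

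The longest region was 3813 bp on chromosome 14 (chr14:54182454-54186266), 49.2 kb from Dad1, a subunit of the oligosaccharyltransferase. It lies in Tcra, the T cell receptor alpha locus, over the joining segments Traj32 to Traj36, which RefSeq does not class as protein-coding. Its folds were 3.52 and 3.11 in cKO replicates 1 and 2. In cKO replicate 1 the covering peak was 6496 bp wide and reached a WT peak, and the nearest WT peaks were 1272 and 4164 bp from the region.

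Next in length came 2604 bp at 136 kb upstream of Mgmt, a DNA repair methyltransferase (chr7:136756056-136758659), with folds of 3.47 and 3.64. A 2450 bp region lay 33.4 kb from Syt7, a calcium sensor of vesicle fusion (chr19:10352942-10355391), with folds of 4.29 and 3.75. On chromosome 10, 2305 bp lay 10.2 kb downstream of the tetraspanin gene Tspan15 and 38.1 kb from Neurog3, a proneural factor (folds 3.71 and 3.66). Another 2150 bp lay 28.0 kb from Nav3, a neuron navigator gene (folds 3.93 and 3.84). Regions near Adgrf1 (2304 bp), Nphp4 (2135 bp) and Tcte2 (2129 bp) completed the 8. Of these 8, 7 had covering peaks that touched no WT peak, and the nearest WT peak was between 2406 and 19055 bp from them. None of the 8 was kept under all 3 list settings described below.

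Ranked by the lower of the 2 cKO folds, the strongest region was 541 bp on chromosome 18 (chr18:85633600-85634140), 652 kb from Fbxo15. Its folds were 4.89 and 5.08, and the nearest WT peaks were 305 and 322 kb away in WT replicates 1 and 2. A 1035 bp region 195 kb from Chsy3, which encodes a chondroitin sulfate synthase, followed with 4.88 and 4.82 (chr18:59606665-59607699). Near Zbtb43, a zinc-finger gene, a region of 337 bp had folds of 4.8 and 5.52, with WT peaks 2083 and 2162 bp away. In the gap between Etv1, a deep layer factor 623 kb away, and Arl4a, 540 kb away, a 438 bp region had 5.34 and 4.75 (chr12:39493197-39493634). Regions nearest to Abca13 (4.81 and 4.74), Adgrb1 (4.87 and 4.63), Cdyl (4.6 and 4.89) and Fam135b (4.56 and 5.29) followed. WT peaks lay 2129 bp from the Abca13 region in WT replicate 1 and 353 kb in WT replicate 2. At Adgrb1 they lay 2258 and 2279 bp away, and a covering cKO peak (4405 bp wide in cKO replicate 2) touched a WT peak. For the regions nearest to Chsy3, Arl4a, Cdyl and Fam135b, WT peaks were at least 14.6 kb away. Cdyl encodes a chromodomain corepressor, and its region lay 206 kb upstream of the gene. Even these 8 reached only percentiles 69.7 to 86.7 of the fold in cKO replicate 1 and 76.8 to 92.0 in cKO replicate 2.

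Fewer of the regions stayed cKO-only as the lists were made stricter or more equal. With peaks of −log10 q of at least 2, 1565 of the 2447 were still cKO-only, with equal numbers of peaks 936, and with equal covered length 137, which were kept under all 3. These settings only remove peaks, so a region can be lost there only because its cKO peaks fell out. The 137 had median folds of 4.19 and 4.20 in cKO replicates 1 and 2, against 3.31 and 3.26 in the other regions. The cuts rank peaks by p or q, so these higher folds follow from the cut. The median length of the 137 was 526 bp against 447 bp. They lay a median of 73.8 kb from a coding gene, against 46.7 kb for the others.

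The longest of the 137 was 1318 bp at 55.0 kb from Gm32436 (chr18:24408841-24410158). Its folds were 4.56 and 4.0 in cKO replicates 1 and 2. Next were 1212 bp near Pabpc2 (chr18:39866856-39868067), in the lncRNA gene Gm41707, with 4.94 and 4.11, and 1112 bp upstream of Iyd (chr10:3513634-3514745), with 3.94 and 4.06. A 1070 bp region lay 21.2 kb upstream of Nkd2, an inhibitor of Wnt signalling (chr13:73868837-73869906), with 4.51 and 3.77. The nearest WT peaks were 29.4 and 67.1 kb from it. A 1017 bp region lay 173 kb downstream of Dusp6, the phosphatase that restrains ERK signalling (chr10:99440442-99441458), with 4.22 and 4.49. Regions near Chsy3 (1035 bp), Pik3c3 (1029 bp, folds 4.25 and 3.81) and Rbfox1, a splicing regulator of neurons (986 bp, 4.91 and 4.05), completed the 8 longest. Of the 137, 10 were on chromosome 18, which held 86 of the 2447.

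The count of regions moved with how much of each list was used. With equal numbers of peaks there were 1272 cKO-only and 786 WT-only regions outside coding genes, and with equal covered length 251 and 2699, so the direction turned. At equal length the cKO lists were cut at −log10 q of 3.65 and 3.75, while WT replicate 1 was cut at 2.64 and WT replicate 2 stayed whole down to 1.31. At −log10 q of at least 3 the cKO-only count was 2595, of which 2157 did not touch a region of the first set and thus appeared where WT peaks had been removed. Each single list also mattered, since the cKO-only count was 5695 without WT replicate 1, 3638 without WT replicate 2, 6322 without cKO replicate 1 and 4646 without cKO replicate 2.

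**Figure D4:**
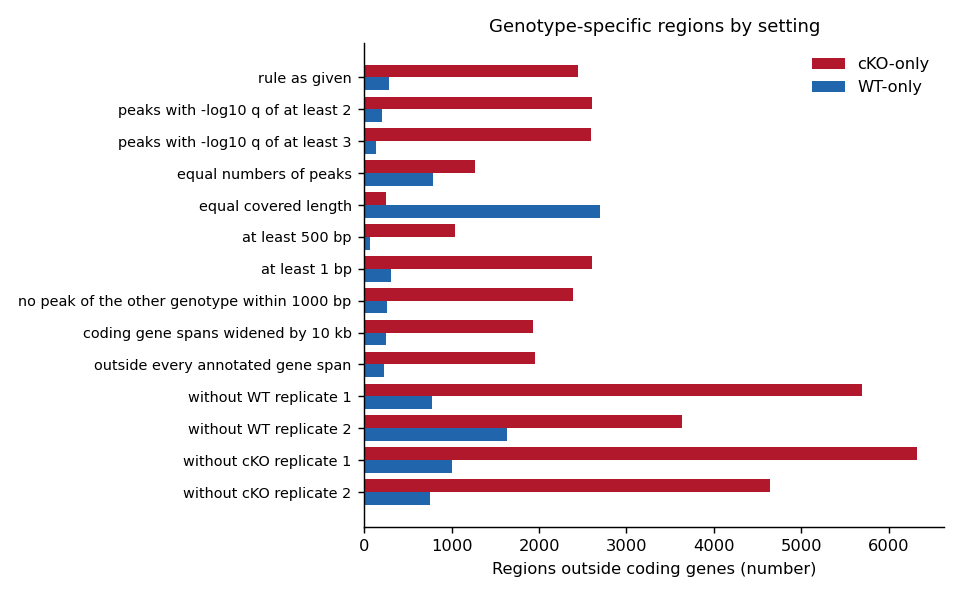
Number of cKO-only (red) and WT-only (blue) regions outside coding genes (horizontal) under the rule as given and each alternative setting (rows). The cKO-only bar is longer in each row apart from equal covered length, where 251 cKO-only stand against 2699 WT-only regions.

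Along the genome the regions were spread over many gaps. They fell in 1641 of 18547 gaps between coding gene spans, 1169 of these held 1 region, and 38 gaps with at least 5 held 229 regions (9.36%). The median distance from one region to the next nearest was 197 kb, and 129 regions (5.27%) had another within 10 kb. These spacings were not compared with those of shared regions or of an even spread. Gaps of at least 1 Mb held 17.5% of cKO-only and 14.9% of shared regions.

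The 5 gaps described next were picked for their number of cKO-only regions, so their shares are high by choice beside 8.93% over all common pieces outside coding genes. The gap with most regions lay between Auts2, a regulator of transcription and neuronal migration whose disruption causes a neurodevelopmental syndrome, and Castor2, a regulator of mTORC1. This 1.56 Mb stretch (chr5:132543221-134099747) held 13 cKO-only regions among 89 common pieces, 14.6%, with 66 pieces shared by all lists. Peaks covered 143 and 151 kb of it in cKO replicates 1 and 2, against 113 and 102 kb in WT replicates 1 and 2. The 13 regions ran from 14.7 kb to 1495 kb after the end of Auts2 and measured 213 to 1447 bp. Their folds were 2.95 to 4.21 in cKO replicate 1 and 2.62 to 4.55 in cKO replicate 2. One of them was kept under all 3 list settings, an 815 bp region (chr5:133203991-133204805) with folds of 3.90 and 4.55 and WT peaks 27.3 and 27.6 kb away.

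**Figure D5:**
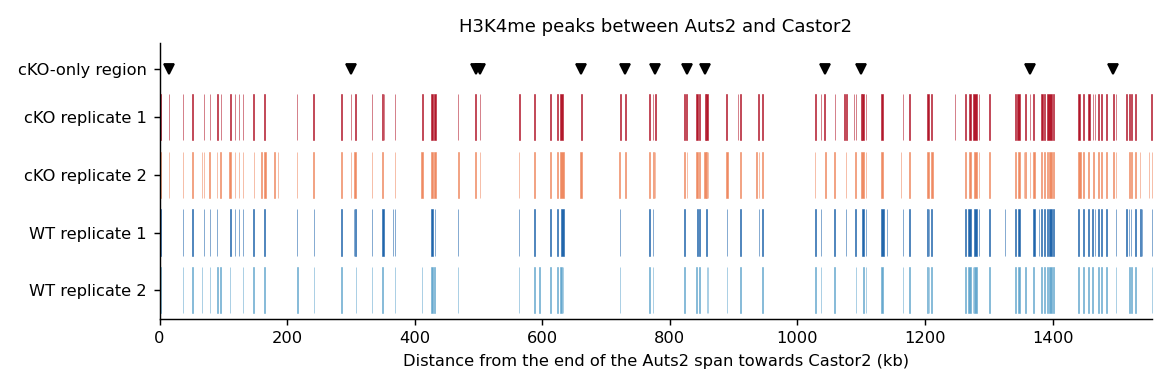
Peaks of the 4 libraries (coloured bars) between Auts2 and Castor2, by distance in kb from the end of the Auts2 span, with triangles at the centres of the 13 cKO-only regions. Most peaks are in the same places in all 4 rows, and the triangles are spread between them.

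The gap between Epha7, an ephrin receptor that guides cortical axons, and Map3k7, a kinase of TGF-beta signalling, held 9 regions in 3.00 Mb (19.1% of 47 common pieces). All 9 lay from 1300 kb after Epha7 onward. A 536 bp region 203 kb from Map3k7 (chr4:31759865-31760400) had folds of 4.3 and 3.6 and was kept under all 3 list settings. Between Adamts16 and Irx1, a homeobox gene, 8 of 31 common pieces were cKO-only (25.8%). Among these a 436 bp region in the lncRNA gene Gm36785 (chr13:71068778-71069213) had folds of 4.19 and 5.04. Between Gfra2, a receptor for GDNF family ligands, and Gm9195 8 of 38 were cKO-only, and between the adhesion receptor genes Adgrl2 and Adgrl4 8 of 59. Between Adgrl2 and Adgrl4, 4 regions lay in 1 lncRNA gene, Gm30382, at 263 to 386 kb from Adgrl2.

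Each region was then assigned to its nearest coding gene and counted in gene lists, where 8.93% of all common pieces outside coding genes, as above, is the value to read against. Nearest to the 25 radial glia genes were 19 cKO-only regions of 308 common pieces (6.17%), at 10 genes. For the 18 intermediate progenitor genes they were 4 of 62 (6.45%), at Gadd45g and Neurod1. Upper layer genes had 12 of 180 (6.67%) and deep layer genes 17 of 154 (11.0%), at 9 genes with Bcl11b, Tle4 and Zfpm2 among them. Tle4, a corepressor, alone had 7 of 39, and the other 17 deep layer genes had 10 of 115 (8.70%). Genes of newborn projection neurons and migration had 15 of 167 (8.98%) and interneuron and ventral genes 14 of 171 (8.19%). Shares for the smaller lists were 5 of 95 for Cajal-Retzius cells, 4 of 42 for oligodendrocyte precursors and astrocytes and 4 of 55 for microglia. They were 2 of 39 for endothelium and pericytes and 8 of 66 (12.1%) for meninges. All 4 regions of the microglia list were nearest to Sall1, 1 of its 15 genes. Notch genes had 3 of 68 (4.41%), Wnt genes 7 of 133 (5.26%), BMP and TGF-beta genes 12 of 167 (7.19%) and the PRDM and histone enzyme list 5 of 50 (10%).

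Regions very close to a list gene were few. A 279 bp region lay 173 bp upstream of Maml2, a coactivator of Notch (chr9:13296109-13296387), with folds of 4.23 and 2.97 in cKO replicates 1 and 2. The neuronal tubulin gene Tubb3 had a 530 bp region 404 bp downstream (chr8:123422420-123422949; 3.17 and 3.28). Olig2, the oligodendrocyte lineage factor, had one of 636 bp 420 bp downstream (chr16:91229098-91229733). There the cKO replicate 2 peak was 10167 bp wide and touched a WT peak, and the folds were 2.86 and 4.59. Twist1, a mesenchymal factor, had a region at 2.71 kb (2.87 and 2.69). Prdm2, a histone methyltransferase of the PRDM family, had one at 6.65 kb (3.58 and 3.94). None of these was kept under all 3 list settings.

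Farther out, Id2, a target of BMP signalling, had a 586 bp region 10.5 kb upstream, with folds of 3.73 and 3.44 in cKO replicates 1 and 2. The Wnt receptor gene Fzd7 had one 16.6 kb upstream (2.95 and 2.62). Other nearest pairs were Gadd45g at 12.9 kb, Pcp4 at 13.3 kb, Maf at 19.2 kb, Vim at 22.6 kb, Kdr at 27.3 kb, Sall1 at 34.9 kb and Cxcr4 at 48.2 kb. Their folds were between 2.62 and 3.68. At Maf the WT peaks began 198 and 146 bp from the region, and both covering peaks were at percentiles 0.378 and 5.03 of fold in their lists.

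Sox2, the stem cell factor, was the nearest coding gene of 4 regions and was singled out after its values were seen. In all 51 common pieces had Sox2 as the nearest gene, so 7.84% were cKO-only, against 8.93% overall. The regions lay 58396, 208766, 306665 and 383860 bp from the gene. Folds in cKO replicates 1 and 2 were 2.64 and 2.71, 3.25 and 3.32, 3.96 and 3.88, and 3.39 and 3.34, in the same order. The third, of 378 bp (chr3:34959127-34959504), was kept under all 3 list settings, and WT peaks lay 2297 and 2334 bp from it. Smad2, which carries TGF-beta signals, was likewise singled out, with 2 of 13 common pieces. The regions lay at 63213 and 167783 bp, the farther one kept under all 3 settings with folds of 4.77 and 4.30.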

How the data were processed

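H3K4me ChIP-seq was made from native chromatin cut with micrococcal nuclease, per the labels' protocols. The tools named are MACS2 2.1.1, Bowtie2 2.2.8, cutadapt and FastQC, with the build mm10, per the submitters' processing notes. How peaks were called and whether the 4 inputs (not analysed here) served as background is not given in the sources used here. The authors deposited 1 broad peak list per library with a score (10 times the −log10 q in nearly all peaks), a fold enrichment (a ratio over the caller's background) and −log10 p and −log10 q. No read counts are given, so the depth is unknown, and a more deeply read library gives more and wider peaks.

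Intervals were computed with Python 3.11.15, numpy 2.4.6, pandas 2.3.3 and scipy 1.17.1. They were tested on simulated data (200 checks, 0 mismatches) and bedtools 2.31.1 gave the same 2447 regions. Genes, gene starts and sequences came from RefSeq tables on GRCm38.p6, the assembly of mm10, with 20661 autosomal coding spans. No genome sequence was used, so sequence features cover gene starts only. A covering peak is the peak with the largest overlap.

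The members, the gene lists and the settings were chosen with earlier results of these data known. Regions named were the 8 longest, the 8 with the highest lower fold, the 8 longest kept under 3 list settings, the 5 gaps with most regions, the region nearest to a gene of each of 16 lists, the 5 nearest coding starts, and those at the length limit. Some of these, and 1 list, are not reported here. The NFI motif is a palindrome with a gap of any 5 bases. No test was made, because the rule uses the same contrast.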

Additional observations from a re-analysis of the deposited data

Results flagged for a closer look

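Chromosome X, which the autosomal rule leaves out, also held regions under peaks in both cKO lists and in no WT list. There were 57 of these outside coding genes among 387 common pieces (14.7%), against 4 WT-only regions among 256 (1.56%). On the autosomes the same shares were 8.93% cKO-only and 1.23% WT-only, and the difference between X and the autosomes was not tested. The sex of the embryos was not part of the sample information used here.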

How the results depend on the processing

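The number of cKO-only regions outside coding genes, 2447, was 1272 with equal numbers of peaks, 251 with equal covered length and 1034 with a minimum of 500 bp. Leaving out 1 library gave 3638 to 6322. It stayed within 1.5 times under 7 of 13 alternatives. The cKO-only minus WT-only number, 2169 by the rule as given, was 486 with equal numbers of peaks, 970 with at least 500 bp and 2002 to 5324 without 1 library, and it turned to -2448 with equal covered length. By construction, leaving out a library asks fewer lists to hold or lack a peak, and equal length leaves 58.8% and 49.4% of the cKO peaks, 76.1% of WT replicate 1 and all of WT replicate 2. The median length was 452 bp as given, 435 to 559 bp under 11 alternatives and 698 and 739 bp under the other 2. The median distance to a coding gene was 44671 to 59701 bp under 12 and 78133 bp under the other. The share overlapping a non-coding gene was 18.9% to 21.7% under 12 and 0 by construction outside every gene, and the share whose cKO peaks touch no WT peak was 89.9% to 94.3% under the 11 alternatives with both cKO lists, and 100% by construction with 1 cKO list. No paired analysis was possible because the counts come from the presence of peaks in all lists at once and from no test. The unknown depth limits all counts: a region without a WT peak may hold the mark below the caller's threshold.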

Other observations

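By nearest coding gene, the regions fell at 1803 of 20661 genes, and 1374 of these had 1 region. The 1803 were 26.0% of the 6937 genes nearest to any common piece outside coding genes. Adgrl2, an adhesion receptor of the latrophilin family that acts at synapses, was nearest to 8 regions among 70 common pieces. Tle4, a Groucho corepressor of deep layer neurons, was nearest to 7 of 39, at 91.9 to 560 kb. Ajap1 and Tafa5 were nearest to 6 of 35 and 6 of 39. Basp1, a growth cone protein gene, was nearest to 5 of 25, the polarity gene Pard3 to 5 of 21, and Myc to 5 of 39, at 89.0 to 822 kb. These genes border long gaps and were picked from the 24 genes nearest to at least 5 regions, not by count alone. Mreg and Epha7, with 5 of 12 each, were among those left out here. The shares are high by choice beside 8.93% over all common pieces outside coding genes.

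In non-coding genes, 454 lncRNA genes overlapped at least 1 region and 4 overlapped 3 or more. Gm30382 held 4 among 23 common pieces, Gm32622 3 among 12, Gm35599 3 among 9 and Gm36560 3 among 6. They were picked by their count, so these shares are high by choice beside 8.93% over all common pieces outside coding genes. The share of regions kept under all 3 list settings was 11.6% on chromosome 18 and at most 8.97% on the other autosomes, with 5.60% over all.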
